A study of Mus musculus with 24 samples.

Results

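The enzymes of purine and pyrimidine synthesis were followed as 10 genes, Cad, Dhodh, Umps, Ctps1, Ppat, Gart, Paics, Atic, Impdh1 and Impdh2, among 56422 gene names in the deposited table. The list was drawn up as the enzymes of these pathways, and Cad was picked because its level showed an interaction of the 2 acids in these same libraries. All 10 were found, Ctps1 under the older symbol Ctps, and all 10 were among the 15163 genes tested. The data are RNA-seq libraries of 24 mouse peritoneal metastases, which are tumours seeded on the membrane that lines the abdomen. Labels assign 6 libraries each to propionate, butyrate, both acids together (the combination) and no treatment (the control). Both acids are short-chain fatty acids produced by gut bacteria, and the title of the series places the study in ovarian cancer, mannose and anti-PD-1 therapy. The labels give no dose, time point, animal age, strain, tumour line or anti-PD-1 treatment for any of the 4 groups. They also do not state that replicates come from separate animals, so each p reflects the variation among these libraries alone and that variation could be technical.

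Cells build nucleotides either from small precursors, the de novo route, or by recycling bases and nucleosides, the salvage route. In the purine route Ppat commits phosphoribosyl pyrophosphate to synthesis, Gart and Paics extend the ring, Atic closes it to inosine monophosphate (IMP), and Impdh1 and Impdh2 turn IMP towards guanine nucleotides. In the pyrimidine route Cad carries the opening reactions on a single polypeptide, Dhodh oxidises dihydroorotate at the mitochondrial inner membrane, Umps makes uridine monophosphate, and Ctps1 makes cytidine triphosphate from uridine triphosphate. Dividing cells draw heavily on de novo synthesis, and transcription factors of the Myc family, which bind the sequence CACGTG, are known regulators of several of these genes.

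The promoters of 4 members are shown because they hold or lack that sequence and because Ppat and Paics, whose enzymes act in the same route, lie beside each other in the genome. Each is the 250 bases before the start site that RefSeq gives in build GRCm38.p6, read 5′ to 3′ on the strand of the gene, with CACGTG, TTTCCCGC (the E2F sequence) and GCGCATGC (the NRF1 sequence), on either strand, in capitals. The Cad window is chr5:31054530-31054779 on the plus strand, the Paics window chr5:76951052-76951301 on the plus strand, the Ppat window chr5:76951579-76951828 on the minus strand and the Atic window chr1:71556906-71557155 on the plus strand.
Cad: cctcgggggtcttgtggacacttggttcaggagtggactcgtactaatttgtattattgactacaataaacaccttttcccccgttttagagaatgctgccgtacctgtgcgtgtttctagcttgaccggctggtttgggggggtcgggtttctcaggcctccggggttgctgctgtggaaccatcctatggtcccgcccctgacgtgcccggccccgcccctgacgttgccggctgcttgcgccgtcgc
Paics: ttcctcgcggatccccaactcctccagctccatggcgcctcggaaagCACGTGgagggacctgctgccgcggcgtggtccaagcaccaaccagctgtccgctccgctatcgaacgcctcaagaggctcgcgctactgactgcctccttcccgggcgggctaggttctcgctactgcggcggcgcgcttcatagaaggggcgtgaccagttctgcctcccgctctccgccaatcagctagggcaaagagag
Ppat: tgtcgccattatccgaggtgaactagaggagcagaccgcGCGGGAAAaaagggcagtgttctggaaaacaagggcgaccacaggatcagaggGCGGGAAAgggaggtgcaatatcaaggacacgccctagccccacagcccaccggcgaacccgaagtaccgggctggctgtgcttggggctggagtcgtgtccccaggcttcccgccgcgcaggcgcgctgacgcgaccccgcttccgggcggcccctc
Atic: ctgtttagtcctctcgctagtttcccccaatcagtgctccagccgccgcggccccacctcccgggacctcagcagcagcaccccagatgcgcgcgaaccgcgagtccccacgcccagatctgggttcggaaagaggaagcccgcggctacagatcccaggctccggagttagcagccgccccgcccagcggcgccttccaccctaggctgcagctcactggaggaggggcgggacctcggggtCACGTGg
Over windows of 300 bases, 250 before the start site and 50 from it onwards, CACGTG stood in 3 of the 9 members with a RefSeq entry, Paics, Atic and Impdh2, and in 7.15% of all 32851 such windows. Its first base lay 203 bases before the start site of Paics, 7 before that of Atic and 110 before that of Impdh2. TTTCCCGC was found in Ppat, at 211 and 158 bases before its start site, and in 1.07% of all windows. GCGCATGC was found in Ppat and in 1 of the Ctps1 windows, and in 2.71% of all windows. TGACGTCA, the sequence bound by CREB and ATF factors, was found in Umps, 3 bases past the start site, and in 1.79% of all windows. None of the 4 sequences was found in the Cad window. The windows end 50 bases from the start site, and sequence beyond them was not searched in any member. Both strands were searched, and a pair of the Ctps1 matches overlap each other. The RefSeq start sites of Paics and Ppat lie on opposite strands 276 bases apart, and the transcribed parts overlap at their starts. The libraries were stranded, but whether the counting used strand is not stated, so reads of that overlap could be assigned to either gene.

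Depth could not be read from these values, because TPM, the transcript abundance scaled to a fixed sum of 1000000 in each library, keeps no read number. Per library, 12618 to 15418 genes reached 1 TPM. The pieces of tissue differed in make-up within each group. Mesothelial markers, which define the lining the labels name, summed to 24.0 to 929.5 TPM over 8 genes in propionate libraries, 11.8 to 404.5 in butyrate, 16.9 to 666.2 in the combination and 12.4 to 1140.4 in controls, with none of the 8 at 0 throughout a group. The sum of the epithelial and ovarian carcinoma markers, 8 genes, was high in largely the same libraries. Sums were 3.20 to 436.4 TPM with propionate, 1.28 to 196.4 with butyrate, 6.04 to 494.0 with the combination and 1.63 to 514.0 in controls. In control replicate 2, which had the highest sum, Krt8 held 292.3 and Krt18 208.9 TPM. There Krt7 held 8.37, Cdh1 1.84, Cldn3 1.12, Pax8 0.78, Epcam 0.68 and Cldn4 0.04 TPM. Ovary markers, 7 genes of which 1 or 2 stood at 0 throughout a group, summed to 2.25 to 259.2 TPM with propionate, 2.36 to 115.7 with butyrate, 2.22 to 175.9 with the combination and 2.40 to 287.9 in controls. Skeletal muscle markers, 10 genes, summed to between 27890.9 and 142366.1 TPM in every library but combination replicate 5. That library stood apart, with a muscle sum of 57.7 TPM, a T cell marker sum of 709.5 TPM, a B cell marker sum of 838.6 TPM and an adipocyte marker sum of 22877.05 TPM. Its Wt1 stood at 0, but its mesothelial list summed to 354.7 TPM, of which Krt19 made 346.5, and its carcinoma list to 494.0 TPM, with Epcam at 62.6. Control replicate 3 had the lowest Wt1 of the controls, at 0.65 TPM, and the lowest Mki67, a marker of dividing cells, at 0.88 TPM. Fewer cells of a type and less RNA per cell cannot be told apart in such bulk samples.

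The 10 genes spanned a wide range of levels. Median TPM over the 24 libraries was highest for Paics, at 83.3, and next for Impdh2, at 58.9. Gart followed at 26.1, Atic at 19.7, Ctps1 at 13.2 and Ppat at 10.005. Impdh1 at 7.62, Dhodh at 7.19, Umps at 5.48 and Cad at 4.97 TPM were the lowest, and these 4 overlapped between libraries. Spread between libraries did not follow level. Umps differed 7.81-fold between its lowest and highest library, Impdh1 5.33-fold, Ctps1 4.83-fold, Cad 4.76-fold and Atic 4.73-fold. Ppat differed only 1.80-fold, Impdh2 2.11-fold and Dhodh 2.27-fold. The Impdh1 range rested on combination replicate 5, at 25.66 TPM, with the next library at 11.19 TPM. That library was also the highest in Cad and Dhodh.

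**Figure D1:**
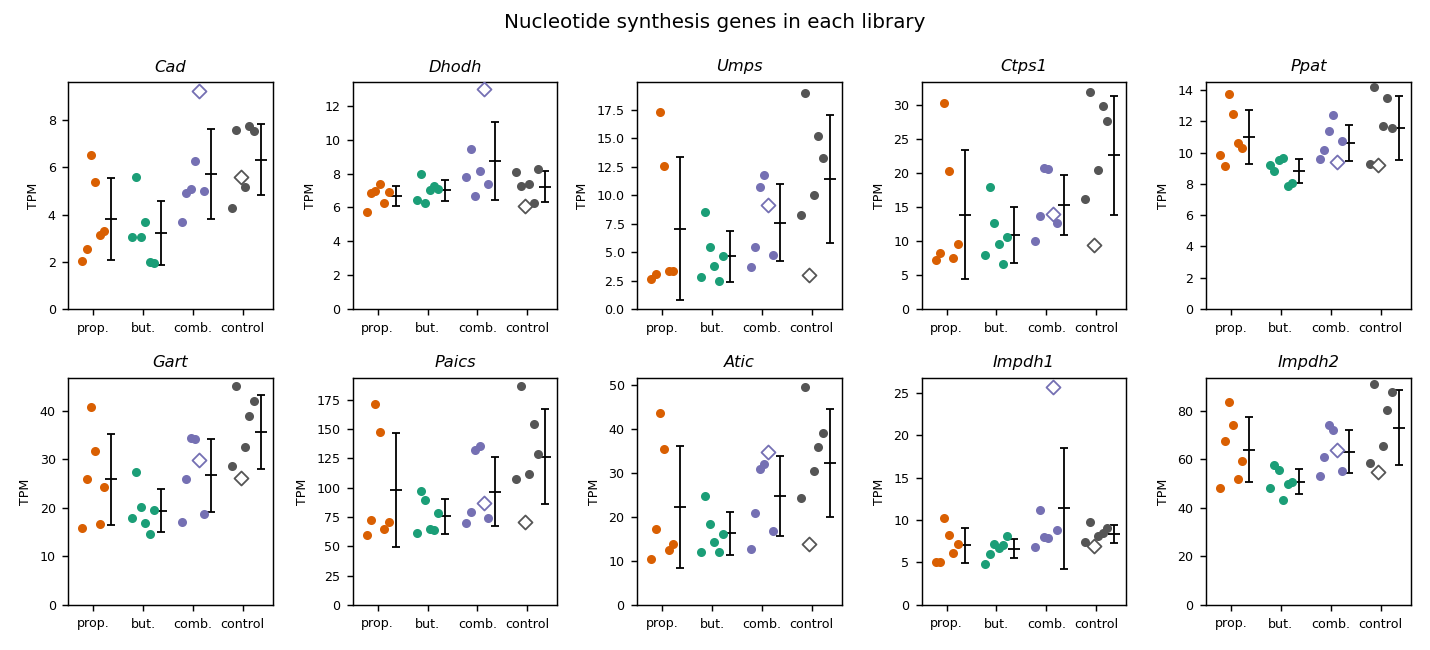
TPM (vertical axes, from 0) of the 10 genes in each of 24 libraries, in the propionate, butyrate, combination and control groups; points are libraries, black bars are mean ± SD of 6, and open diamonds are combination replicate 5 and control replicate 3. Propionate replicates 3 and 4 sit above the other 4 propionate libraries in Umps, Ctps1, Paics and Atic, and combination replicate 5 is the highest library in Cad, Dhodh and Impdh1.

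Cad lay lower with either acid alone than with both or with none. Propionate libraries held 2.02, 3.23 and 6.52 TPM (lowest, median, highest), butyrate libraries 1.94, 3.05 and 5.61, combination libraries 3.69, 5.06 and 9.23, and controls 4.26, 6.58 and 7.76. Means were 3.82 ± 1.75 TPM with propionate, 3.22 ± 1.35 with butyrate, 5.71 ± 1.91 with the combination and 6.327 ± 1.5015 in controls (SD, n = 6 each). Every pair of groups overlapped. The high propionate libraries were replicates 3 and 4, at 6.52 and 5.38 TPM, and the high butyrate library was replicate 2, at 5.61 TPM. These 3 also had the highest Wt1 of their groups, at 335.8, 254.3 and 166.3 TPM.

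Since Cad was picked on its interaction, its contrasts are given as descriptions without a test. The interaction was taken as combination minus propionate, less butyrate minus control, and was 1.33 ± 0.34 (SE) on the log2(TPM + 1) scale. Its parts were a log2 fold change of -0.65 ± 0.24 for propionate against control, -0.83 ± 0.24 for butyrate against control, and -0.14 ± 0.24 for the combination against control. The combination was 0.51 ± 0.24 above propionate and 0.68 ± 0.24 above butyrate on the same scale. Without combination replicate 5, the Cad interaction was 1.20 and the combination stood at -0.27 against control, 0.38 against propionate and 0.55 against butyrate. Median-of-ratios scaling gave a Cad interaction of 0.78 and quantile normalization 0.61.

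The genes whose profiles over the 24 libraries were nearest to Cad were no members of its route. By root mean square difference of centred log2(TPM + 1), the 5 nearest were Pola2 (0.196), Ap1m1 (0.210), Sec16a (0.212), Hdac7 (0.219) and Dhx16 (0.224). Pola2 encodes a subunit of the DNA polymerase alpha-primase complex, and averaged 11.5 ± 4.71 TPM with propionate, 9.64 ± 1.63 with butyrate, 13.8 ± 2.70 with the combination and 16.9 ± 4.47 in controls (SD, n = 6 each). The nearest member was Gart, at a difference of 0.303, which was rank 959 of all tested genes, and the farthest was Umps, at 0.499 and rank 8010. Profiles were centred but not scaled, so this difference reflects the size of changes as well as their pattern.

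Of the other pyrimidine enzymes, Umps and Ctps1 varied most between pieces of tissue. Umps held 2.68, 3.38 and 17.3 TPM (lowest, median, highest) with propionate, 2.43, 4.26 and 8.49 with butyrate, 3.67, 7.32 and 11.8 with the combination, and 3.03, 11.6 and 19.0 in controls. Ctps1 held 7.15, 8.95 and 30.4 TPM with propionate, 6.62, 10.1 and 18.0 with butyrate, 10.1, 13.9 and 20.7 with the combination, and 9.42, 24.1 and 32.0 in controls. In both genes propionate replicates 3 and 4 lay with the high controls, control replicate 3 lay with the low treated libraries, and every treated group overlapped the controls. Dhodh, the mitochondrial step between Cad and Umps, was nearly level. It held 5.74, 6.91 and 7.39 TPM with propionate, 6.26, 7.08 and 8.0 with butyrate, 6.67, 7.97 and 13.0 with the combination, and 6.07, 7.32 and 8.28 in controls, and its highest value was again combination replicate 5.

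In the purine route Ppat, which takes the committed step, was the least variable. It held 9.14, 10.5 and 13.7 TPM with propionate, 7.86, 8.99 and 9.66 with butyrate, 9.39, 10.5 and 12.4 with the combination, and 9.22, 11.7 and 14.2 in controls. Butyrate libraries were lowest in Ppat, and 4 of 36 pairs of a butyrate and a control library had the butyrate library higher. Pair counts were not made over all tested genes, so no background stands beside this count. Paics, the most abundant member, held 59.6, 71.6 and 171 TPM with propionate, 61.2, 71.2 and 96.9 with butyrate, 70.1, 83.3 and 136 with the combination, and 70.3, 120 and 187 in controls.

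Gart held 15.9, 25.1 and 40.8 TPM with propionate, 14.6, 18.7 and 27.4 with butyrate, 17.0, 28.0 and 34.3 with the combination, and 26.2, 35.7 and 45.2 in controls. Butyrate was above control in 1 of 36 pairs of libraries, so the groups met at a single pair, butyrate replicate 2 at 27.4 and control replicate 3 at 26.2 TPM. Pair counts were not made over all tested genes, of which 35.1% were lower with butyrate at an unadjusted p under 0.05 (limma). Atic held 10.5, 15.7 and 43.6 TPM with propionate, 11.98, 15.2 and 24.9 with butyrate, 12.7, 25.9 and 34.7 with the combination, and 13.9, 33.2 and 49.6 in controls, and overlapped in every comparison.

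The 2 IMP dehydrogenases, the enzymes at the branch to guanine nucleotides, differed in level and in spread. Impdh2 held 48.0, 63.3 and 83.6 TPM with propionate, 43.1, 50.3 and 57.7 with butyrate, 53.1, 62.4 and 74.4 with the combination, and 55.0, 73.0 and 91.1 in controls. Impdh1 held 5.01, 6.68 and 10.3 TPM with propionate, 4.81, 6.87 and 8.09 with butyrate, 6.87, 8.40 and 25.7 with the combination, and 6.99, 8.29 and 9.82 in controls. The 25.7 TPM of Impdh1 in the combination came from replicate 5, and the next combination library held 11.2 TPM.

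The libraries high in most of these enzymes were largely those high in Wt1, a mesothelial gene, and in Mki67. The same held for Krt8, an epithelial keratin, and Inha, an inhibin subunit of the ovary list. Of the 10 libraries with the most Wt1, all 10 were among the 10 highest in Ctps1 and in Paics, 9 in Umps, Gart and Atic, 8 in Cad, Ppat and Impdh2, and 6 in Dhodh and Impdh1. Counts were the same against Mki67 and against Inha, and against Krt8 they were 6 to 10 per gene. Against Acta1, a skeletal muscle actin, the shared libraries numbered 1 to 3 per gene. Such counts were not made over all tested genes, so no background stands beside them. A fit with tissue covariates, which drew on skeletal muscle and ovary lists among others, is given with each comparison with control. The part of the cell cycle, mesothelial and carcinoma lists was not tested. The ovary list was high in largely the same libraries, so that fit could carry part of their difference.

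**Figure D2:**
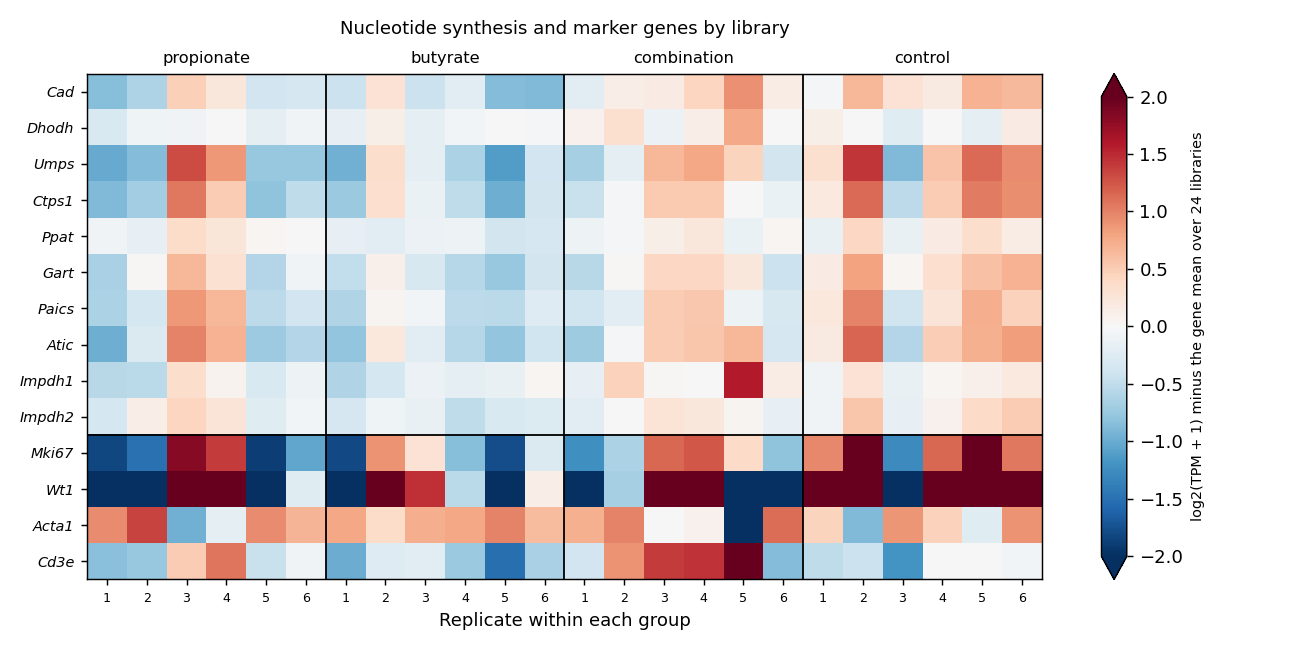
Colour shows log2(TPM + 1) minus the gene mean over 24 libraries, from blue (lower) to red (higher), for 10 synthesis genes (upper rows) and for Mki67, Wt1, Acta1 and Cd3e (lower rows), with libraries in columns by group. Of the 10 genes, 9 and 10 lie above their mean in propionate replicates 3 and 4, 9 and 10 in combination replicates 3 and 4, and 2 in control replicate 3.

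With propionate, none of the 9 members other than Cad passed the test (limma, Benjamini-Hochberg adjusted p under 0.05 over 15163 genes), and 0% of all genes did. All 9 lay below control on the deposited scale, but Dhodh, Ppat, Impdh1 and Impdh2 lay above it after median-of-ratios scaling or quantile normalization. The median log2 fold change was -0.44 over the 9 members against -0.30 over all tested genes, and -0.08 against -0.003 after median-of-ratios scaling. Ctps1 had a log2 fold change of -0.77 ± 0.33 (SE), Gart -0.49 ± 0.22, Atic -0.61 ± 0.34, Umps -0.79 ± 0.42 and Paics -0.44 ± 0.27, with adjusted p of 0.333 to 0.334 (limma). At an unadjusted p under 0.05, 2 of these 9 lay lower, beside 9.13% of all genes. Single libraries moved this count to 5 of 9, beside 40.7% of all genes without propionate replicate 3, 31.2% without propionate replicate 4 and 35.2% without control replicate 3. With tissue covariates the median was -0.06 over the 9 and -0.04 over all genes, and 3 of the 9 lay above control. Cell cycle markers, 16 genes, had a median log2 fold change of -1.55 in the same comparison, and mesothelial markers, 8 genes, had -1.43, and their part in the result was not tested. Skeletal muscle markers had 0.33 and the 5 ovary genes tested -2.05.

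Butyrate had the lowest group mean in most of these enzymes. The medians of Umps, Ctps1, Dhodh and Impdh1 were lower with propionate than with butyrate. For butyrate against control, again 0 of the 9 members passed, beside 0% of all genes, and the smallest adjusted p was 0.115 (limma). Log2 fold changes were -1.07 ± 0.42 (SE) for Umps, -0.95 ± 0.33 for Ctps1, -0.89 ± 0.34 for Atic, -0.84 ± 0.22 for Gart, -0.69 ± 0.27 for Paics, -0.49 ± 0.15 for Impdh2 and -0.34 ± 0.12 for Ppat. Dhodh, at -0.03 ± 0.13, and Impdh1, at -0.29 ± 0.23, were nearer to control. At an unadjusted p under 0.05, 7 of the 9 lay lower, beside 35.1% of all genes. The median was -0.69 over the 9 members and -0.38 over all genes, and after median-of-ratios scaling it was -0.25 over the 9 and -0.01 over all genes, with Dhodh, Ppat and Impdh1 then above control.

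Calls turned on a control library. Without control replicate 3, the adjusted p of limma passed in 7 of the 9 members, all but Dhodh and Impdh1, and in 37.3% of all genes, with a median of -0.85 over the 9. Umps then had a log2 fold change of -1.36 and Ctps1 of -1.16. With tissue covariates in the fit, 0 of the 9 passed and their median was -0.19, beside -0.07 over all genes. With all libraries, the cell cycle list had a median of -1.66, the mesothelial list of -1.68, the ovary list of -2.10 and the skeletal muscle list of 0.50.

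With the combination, 7 of the 9 members other than Cad lay below control and 2, Impdh1 and Dhodh, above it, and Ppat too lay above after quantile normalization. With tissue covariates the split turned, with 6 of the 9 above control and a median of 0.04, beside 0.03 over all genes. None of the 9 passed with all libraries, beside 0% of all genes, and the smallest adjusted p was 0.508, for Gart at a log2 fold change of -0.42 ± 0.22 (limma). Umps and Ctps1 both stood at -0.47, with SE of 0.42 and 0.33, Paics at -0.37 ± 0.27 and Atic at -0.36 ± 0.34. At an unadjusted p under 0.05 there were 0 of the 9 in either direction, beside 6.2% of all genes higher and 4.1% lower, and 2 lower without control replicate 3, beside 14.3% of all genes. The cell cycle list had a median of -1.09 and the mesothelial list of -1.63, and their part in the result was not tested. The skeletal muscle list had a median of -1.65, which turned to 0.29 without combination replicate 5. Impdh1 was 0.28 ± 0.23 above control and Dhodh 0.22 ± 0.13 above it. Without combination replicate 5 these were 0.03 for Impdh1 and 0.11 for Dhodh, so 1 library decided the Impdh1 value.

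**Figure D3:**
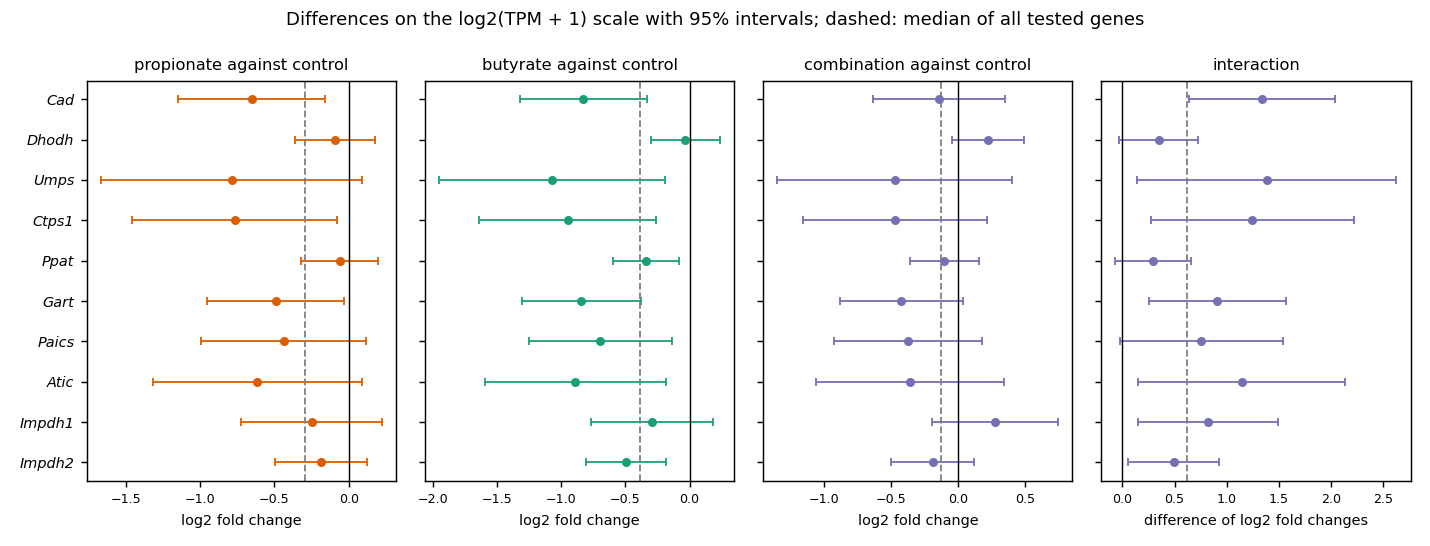
Log2 fold change on the log2(TPM + 1) scale (horizontal axes, which differ in range) with 95% intervals for each of the 10 genes, for propionate, butyrate and the combination against control and for the interaction; the dashed line is the median of all 15163 tested genes. Butyrate values run from -1.07 in Umps to -0.03 in Dhodh, and the intervals of the combination against control all cover 0. On rescaled data Dhodh, Ppat and Impdh1 turn above control with either acid alone. Cad was picked on its interaction, so its intervals are descriptions and not tests.

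Against the single acids, the combination was the higher group in most members. Leaving Cad aside, it lay above propionate in 7 of 9 members and above butyrate in 9 of 9, which became 5 and 5 after median-of-ratios scaling. Most tested genes lay above propionate too, where Impdh2, at -0.003, stood at percentile 22.8 of all log2 fold changes. Against butyrate the lowest member, Ppat at 0.24, stood at percentile 41.4. None of the 9 members other than Cad passed the test in either comparison, beside 0% of all genes. Against propionate, Impdh1 was 0.53 ± 0.23 and Dhodh 0.31 ± 0.13 higher (log2, SE), with limma adjusted p of 0.546 and 0.542, and these 2 were the members under an unadjusted p of 0.05, beside 8.43% of all genes. Against butyrate, Impdh1 was 0.57 ± 0.23 higher with an adjusted p of 0.317, the only one of the 9 under an unadjusted p of 0.05, beside 14.6% of all genes. Both Impdh1 differences include combination replicate 5, at 25.66 TPM beside 11.19 TPM in the next combination library. Without combination replicate 5, 0 of the 9 lay under that unadjusted p against propionate.

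Butyrate and propionate, which differ by a single carbon in chain length, were also compared. Leaving Cad aside, butyrate lay below propionate in 8 of 9 members, and in 7 after median-of-ratios scaling. Without propionate replicate 3 it lay below in 5. Most tested genes lay below propionate too. Impdh1, at -0.05, stood at percentile 60.9 of all log2 fold changes, and Dhodh, at 0.06, at percentile 79.6. No member passed, beside 0% of all genes, and every adjusted p rounded to 1 (limma). Ppat had the smallest unadjusted p among the members, at a log2 fold change of -0.28, 95% interval -0.54 to -0.02. The interval for Gart was -0.81 to 0.11, for Umps -1.16 to 0.60 and for Dhodh -0.21 to 0.33, so differences of these sizes in either direction were not resolved.

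For the interaction, none of the 9 members other than Cad passed, beside 0% of all genes, with adjusted p of 0.128 to 0.191 (limma). Values were 1.38 ± 0.60 (SE) for Umps, 1.24 ± 0.47 for Ctps1, 1.14 ± 0.48 for Atic, 0.91 ± 0.32 for Gart, 0.82 ± 0.32 for Impdh1 and 0.76 ± 0.38 for Paics. Impdh2 stood at 0.49 ± 0.21, Dhodh at 0.35 ± 0.18 and Ppat at 0.30 ± 0.18. At an unadjusted p under 0.05, 6 of the 9 had positive values, beside 34.8% of all genes. The 9 were positive on the deposited scale, where the median of all genes was 0.62, but Dhodh, Ppat and Impdh2 were negative after median-of-ratios scaling and quantile normalization, which moved that median to 0.05 and -0.01. Without propionate replicate 3, the adjusted p passed in 7 of the 9 members, all but Dhodh and Ppat, and in 37.1% of all genes.

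The rest of the nucleotide pathways was read from lists of related enzymes. Most tested genes lay below control on the deposited scale, so counts below control are to be read beside that. Among all log2 fold changes, -0.06 (Ppat) stood at percentile 74.3 with propionate and -0.03 (Dhodh) at 76.8 with butyrate. With the combination, -0.10 (Ppat) stood at percentile 52.6. Among 8 remaining de novo enzymes, 0 passed in any comparison with control. Butyrate was below control in 7 of the 8, and in 5 after median-of-ratios scaling, with a median log2 fold change of -0.55 and 2 lower at an unadjusted p under 0.05, beside 35.1% of all genes. Propionate gave a median of -0.42 with 5 below control, and the combination -0.31 with 7 below. Gmps, which makes guanosine monophosphate, had -0.88 ± 0.34 (SE), Pfas, a purine ring enzyme, -0.44 ± 0.19, Ctps2, the second cytidine triphosphate synthase, -1.26 ± 0.63, and Prps2, which makes phosphoribosyl pyrophosphate, -0.98 ± 0.54, with adjusted p of 0.115 to 0.176 (limma). After quantile normalization Pfas lay at 0.01, and with tissue covariates Ctps2 and Prps2 lay at 0.05 and 0.09.

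Among thymidylate and deoxynucleotide synthesis genes, all 12 were below control with propionate and with butyrate, and 11 of 12 with the combination, and 0 passed. Most tested genes lay below control too. At an unadjusted p under 0.05, 4 were lower with propionate, 8 with butyrate and 0 with the combination, beside 9.13, 35.1 and 4.1% of all genes. Without control replicate 3 these were 9 with propionate, 9 with butyrate and 6 with the combination, beside 35.2, 48.1 and 14.3% of all genes. Medians were -0.78 with propionate, -1.004 with butyrate and -0.49 with the combination. After median-of-ratios scaling 9 of 12 lay below control with propionate and with butyrate. With tissue covariates the medians were -0.07 with propionate, -0.15 with butyrate and 0.001 with the combination. Rrm2, the S phase subunit of ribonucleotide reductase, averaged 3.84 ± 3.25 TPM with butyrate and 16.1 ± 10.8 TPM in controls (SD, n = 6 each), a log2 fold change of -1.73 ± 0.67 (SE). Dctd, the deoxycytidylate deaminase, had -1.51 ± 0.53, Dtymk, the thymidylate kinase, -1.10 ± 0.39, and Guk1, the guanylate kinase, -0.73 ± 0.27, each with an adjusted p of 0.115 (limma). Without control replicate 3, 9 of the 12 passed with butyrate, beside 37.3% of all genes.

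In nucleotide salvage, 15 of 15 genes were below control with propionate and with butyrate and 11 of 15 with the combination, and 0 passed. Here too most tested genes lay below control. After median-of-ratios scaling 10 of 15 were below control with either acid alone and 8 of 15 with the combination. Medians were -0.48 with propionate, -0.65 with butyrate and -0.13 with the combination, with 3, 7 and 2 genes lower at an unadjusted p under 0.05, beside 9.13, 35.1 and 4.1% of all genes. With propionate this count was 10 without propionate replicate 3, 7 without propionate replicate 4 and 8 without control replicate 3. The shares of all genes in these settings are given with the propionate comparison above. Without control replicate 3, 8 of the 15 passed with butyrate, beside 37.3% of all genes. With tissue covariates the medians were -0.08 with propionate, -0.06 with butyrate and 0.06 with the combination. Aprt, which recycles adenine, had a butyrate log2 fold change of -0.84 ± 0.27 (SE), Uck2, a uridine-cytidine kinase, -0.86 ± 0.31, and Slc29a1, an equilibrative nucleoside transporter, -0.75 ± 0.27. Slc29a2, a related transporter, averaged 2.10 ± 0.86 TPM with the combination and 4.24 ± 0.81 TPM in controls (SD, n = 6 each), a log2 fold change of -0.79 ± 0.22 with an adjusted p of 0.227 (limma).

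Nucleotide breakdown was the list in which the combination lay mostly above control, in 9 of 14 tested genes, with a median log2 fold change of 0.29 beside -0.12 over all genes. None passed, and 4 were higher at an unadjusted p under 0.05, beside 6.2% of all genes. Xdh, xanthine dehydrogenase, which makes uric acid, averaged 49.2 ± 17.3 TPM with the combination and 25.7 ± 2.18 TPM in controls (SD, n = 6 each), and its log2 fold change was 0.85 ± 0.17 (SE) with an adjusted p of 0.172 (limma). Xdh in the combination libraries ran from 33.7 to 81.3 TPM, with the highest again in replicate 5, and was 0.70 above control without it. Gda, guanine deaminase, averaged 20.3 ± 4.94 TPM with the combination and 10.5 ± 2.57 TPM in controls, a log2 fold change of 0.88 ± 0.23 with an adjusted p of 0.208, and 0.78 without replicate 5. Dpyd and Upb1, enzymes of pyrimidine breakdown, had 0.85 ± 0.26 and 0.87 ± 0.33, and 0.56 and 0.74 without replicate 5. Without replicate 5 the median of the list was 0.09, with 10 of 14 above control. After median-of-ratios scaling 10 of 14 were above control and Gda passed, with an adjusted p of 0.0492 (limma), beside 0.231% of all genes, whereas 0 of the 14 passed after quantile normalization. With tissue covariates 13 of 14 were above control and 3 passed, beside 3.04% of all genes. The single acids gave medians of -0.13 for propionate and -0.08 for butyrate, with 8 of 14 below control in each, which became 5 and 4 after median-of-ratios scaling.

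Among 8 genes of one-carbon and glutamine supply, butyrate lay below control in 7, and in 6 after median-of-ratios scaling. None passed with all libraries, where the unadjusted p was under 0.05 in 6, beside 35.1% of all genes, and 6 passed once control replicate 3 was left out, beside 37.3% of all genes. Shmt2, the mitochondrial serine hydroxymethyltransferase, had a log2 fold change of -0.53 ± 0.15 (SE), Shmt1, its cytosolic partner, -0.53 ± 0.17, and Mthfd1, a folate enzyme, -0.52 ± 0.16, each with an adjusted p of 0.115 (limma). Glul, glutamine synthetase, was 0.72 ± 0.28 above control with the combination, at 353.2 ± 238.7 against 184.6 ± 29.2 TPM (SD, n = 6 each), and 0.44 without combination replicate 5, which held 802.2 TPM.

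Of 7 transcription factors tied to these genes, 0 passed. All 7 lay below control with butyrate on the deposited scale, as did most tested genes, and 5 of 7 after median-of-ratios scaling. At an unadjusted p under 0.05, 6 were lower, beside 35.1% of all genes. Without control replicate 3, 5 of 7 passed with butyrate, beside 37.3% of all genes. Myc averaged 6.99 ± 5.58 TPM with butyrate and 24.3 ± 12.9 TPM in controls (SD, n = 6 each), a log2 fold change of -1.71 ± 0.64 (SE). Mycn had -1.16 ± 0.40, Nrf1 -0.71 ± 0.27 and Atf4, a regulator of amino acid and one-carbon genes, -0.36 ± 0.12, each with an adjusted p of 0.115 (limma). Atf4 turned above control after either rescaling, at 0.08 and 0.01.

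**Figure D4:**
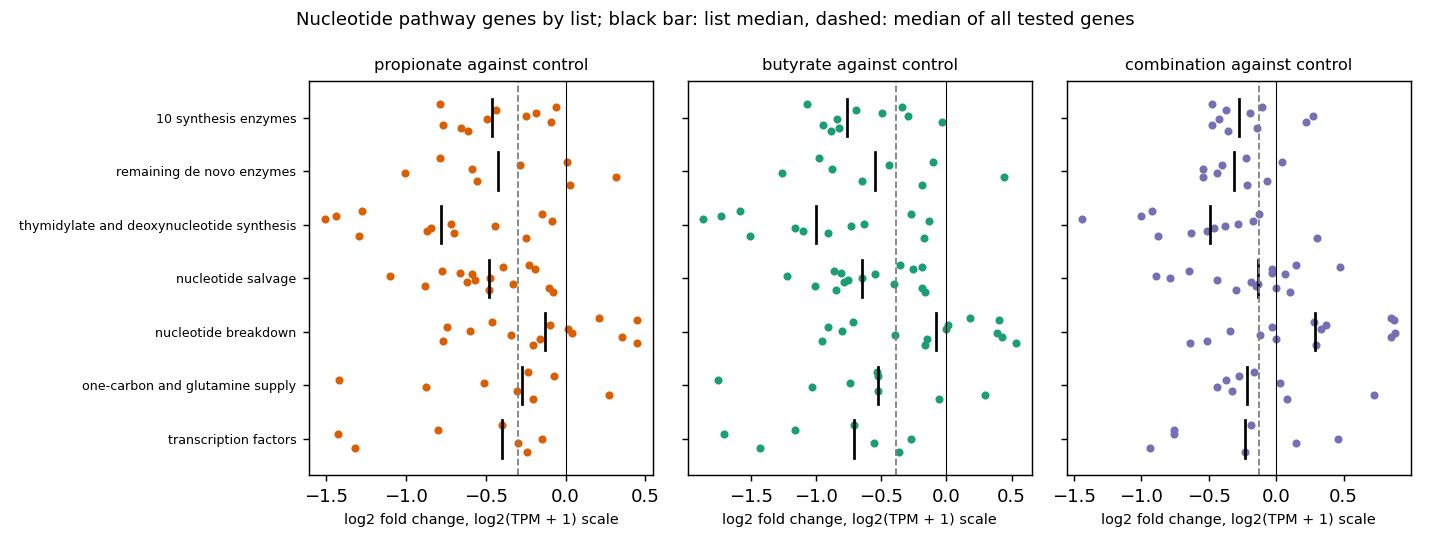
Log2 fold change against control on the log2(TPM + 1) scale (horizontal axes) of each gene of 7 lists for propionate, butyrate and the combination; points are genes, black bars list medians, and the dashed line is the median of all tested genes. Thymidylate and deoxynucleotide genes have a median of -1.004 with butyrate, which was -0.15 with tissue covariates, and the breakdown list has a median of 0.29 with the combination; on rescaled data fewer genes lie below control.

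Ratios within a library do not move with the total that TPM shares out, so 3 were compared with control by two-sided exact permutation tests, whose smallest possible p is 0.00216. None of the 9 tests passed after Benjamini-Hochberg adjustment over 9. The log2 ratio of Paics to Ppat was 2.92 ± 0.47 with propionate, 2.94 ± 0.29 with butyrate, 3.03 ± 0.32 with the combination and 3.29 ± 0.29 in controls (SD, n = 6 each), so all 3 treated means lay below control. Exact permutation gave p of 0.136, 0.0563 and 0.149 for propionate, butyrate and the combination, each 0.269 after adjustment.

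The log2 ratio of Impdh2 to Impdh1 was 3.03 ± 0.23 with propionate, 2.77 ± 0.26 with butyrate, 2.51 ± 0.66 with the combination and 2.97 ± 0.15 in controls (SD, n = 6 each). Exact permutation p was 0.671 for propionate, 0.121 for butyrate and 0.0779 for the combination, with adjusted p of 0.755, 0.269 and 0.269. The lowest ratio, 1.28, was that of combination replicate 5, which lowered the combination mean, and the next combination library stood at 2.35. For Ctps1 to Ctps2 the log2 ratio was -0.74 ± 0.84 with propionate, -0.66 ± 0.44 with butyrate, -1.01 ± 0.77 with the combination and -0.98 ± 0.48 in controls, and exact permutation gave p of 0.567, 0.245 and 0.931 for the 3 treated groups. Without combination replicate 5 or without control replicate 3 the combination ratio lay above control, by 0.17 and 0.15. The mean log2 ratio was negative in every group, with Ctps2 the more abundant synthase. Ctps1 was the higher in propionate replicates 1 and 2 and combination replicate 6, at TPM ratios of 1.17, 1.14 and 1.03.

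**Figure D5:**
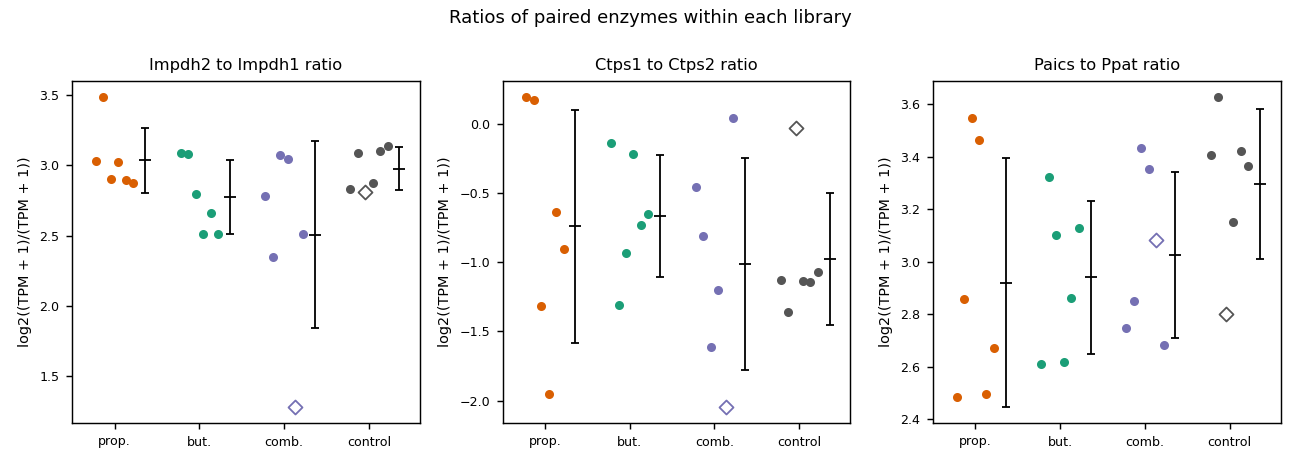
Log2 ratio of TPM + 1 of Impdh2 to Impdh1, Ctps1 to Ctps2 and Paics to Ppat in each library (vertical axes, which do not start at 0), for the propionate, butyrate, combination and control groups; points are libraries, black bars mean ± SD of 6, and open diamonds combination replicate 5 and control replicate 3. Paics to Ppat averaged 2.92, 2.94 and 3.03 in the treated groups and 3.29 in controls, with every group overlapping the controls.

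The deposited table lists several transcripts for most members, without transcript identifiers. A single transcript held 99.2% of the summed TPM of Ppat, 99.1% of Atic, 97.2% of Ctps1 and 96.8% of Umps. Gart was split over 3 transcripts, at 40.4, 27.9 and 15.4%, Paics over 3, at 52.6, 26.2 and 19.7%, and Impdh2 over 2, at 72.6 and 25.5%. For Cad, the main transcript held 70.9% over all libraries and between 34.8 and 100% in a single library. By group that share averaged 72.1 ± 15.0% with propionate, 73.9 ± 19.6% with butyrate, 65.8 ± 14.7% with the combination and 69.6 ± 18.1% in controls (SD, n = 6 each), which overlapped throughout.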

How the data were processed

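RNA was extracted with TRIzol and poly(A)-selected into stranded libraries, per the labels' protocols. Per the submitters' processing notes, the tools (versions and annotation: not given in the sources used here) included fastp, HISAT2 and StringTie, and the build was mm39. The authors deposited TPM, transcript abundance scaled to a fixed library sum, for 149132 transcript rows in 24 libraries, and whether counting used strand is not stated. TPM holds no read number, so depth is unknown and no counting interval is given. Rows were summed by gene name with pandas 2.3.3; 1001 rows without a name, 0.174 to 0.470% of TPM, were left out.

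The 15163 genes that reached 1 TPM in 6 or more libraries were fitted as log2(TPM + 1) with limma 3.58.1 in R 4.3.3, all 24 libraries in a single fit, eBayes with trend and robust, two-sided, with Benjamini-Hochberg adjustment over all tested genes and a threshold of 0.05. A fold change on this scale understates the change of low genes. Ratios within libraries were compared by exact permutation tests over all arrangements, and the p were adjusted with scipy 1.17.1. The scripts were tested on simulated data. Alternatives were another pseudocount, other filters, 2 rescalings, weights per library, tissue covariates, fits of the compared groups alone, eBayes without trend, replicate blocks and leaving out each library. For the tissue covariates, 8 marker lists were scored and reduced to 2 principal components. Skeletal muscle and ovary were among them, and cell cycle, mesothelium and carcinoma were not. The ovary list was high in largely the same libraries as the mesothelial and cell cycle lists. The covariates could thus carry part of their differences.

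The members and lists were chosen with earlier results of these data known. All 10 members are named, with up to 4 genes of each other pathway list by smallest unadjusted p in any comparison with control, and the 5 genes nearest to Cad. Promoters are RefSeq sequences of GRCm38.p6, matched by symbol for 9 members, and were not converted to mm39.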

Additional observations from a re-analysis of the deposited data

Results flagged for a closer look

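A sample far from the other 5 of its group was found in 3 of 52 groups of 6 libraries examined, and chance flags about 1 in 20. Impdh1 in combination replicate 5 held 25.66 TPM, against 11.19 TPM in the next combination library and 6.87 in the lowest. The log2 ratio of Impdh2 to Impdh1 in propionate replicate 2 was 3.4877, with the next propionate library at 3.0282 and the lowest at 2.8741. The log2 ratio of Ctps1 to Ctps2 in control replicate 3 was -0.0274, with the next control at -1.0683 and the lowest at -1.3626. No explanation was tested for any of them.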

How the results depend on the processing

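Over the alternatives, 1004 of the members' log2 fold changes kept direction and side of the threshold, 64 newly passed and 31 changed sign. These totals include Cad, which gets no test, in more comparisons than the other members. Shares of all genes for settings with new passes are given with the counts by comparison, above or below. The cause was not tested for any change. Median-of-ratios scaling and quantile normalization, given in that order, turned propionate against control to 0.23 and 0.31 in Dhodh, 0.27 and 0.34 in Ppat, 0.069 and 0.16 in Impdh1, and 0.17 and 0.095 in Impdh2. They turned butyrate against control to 0.36 and 0.44 in Dhodh, 0.069 and 0.17 in Ppat, 0.10 and 0.20 in Impdh1, and 0.078 and 0.013 in Atf4, and quantile normalization turned Pfas to 0.010 with butyrate and Ppat to 0.035 with the combination. The interaction became -0.28 and -0.40 in Dhodh, -0.35 and -0.47 in Ppat, and -0.20 and -0.089 in Impdh2. With tissue covariates, propionate gave 0.074 in Ppat, 0.028 in Paics and 0.018 in Impdh2, butyrate 0.0023 in Dhodh, 0.050 in Ctps2 and 0.094 in Prps2, and the combination 0.079 in Umps, 0.027 in Ctps1, 0.042 in Ppat and 0.039 in Paics. Weights per library turned Cad to 0.049 for butyrate against propionate.

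The number of members passing was 0 of 10 in each comparison. These counts hold Cad, which was picked on its interaction and gets no test, so those of the other 9 follow each. With weights per library it was 9 for propionate, 9 for butyrate and 5 for the combination against control, 6 for the combination against propionate and 10 for the interaction (8, 8, 5, 5 and 9 without Cad), beside 75.4, 67.6, 38.2, 33.1 and 72.4% of all genes. Combination replicate 5, propionate replicates 3 and 4 and control replicate 3 had the lowest weights, 0.126, 0.127, 0.181 and 0.260. Leaving out each library in turn gave 0 to 8 for butyrate against control (8 without control replicate 3, 7 leaving Cad aside) and 0 to 8 for the interaction (8 without propionate replicate 3, 7 leaving Cad aside). Dhodh with butyrate ran from -0.074 to 0.0046. The ratio difference of Impdh2 to Impdh1 with propionate ran from -0.030 to 0.093, and that of Ctps1 to Ctps2 with the combination from -0.25 to 0.17. With medians of log ratios these were -0.019 and 0.13.

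Samples with the same number in the title or the library number did not consistently deviate together. Correlations ran from -0.87 to 0.61 by title number and from -0.39 to 0.64 by library number, so numbers are not taken as pairs. A replicate block by title number left 0 members passing, and a replicate block by library number gave 8 for butyrate against control, with 52.1% of all genes, and 6 for the interaction, with 35.8% (7 and 5 leaving Cad aside).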
